A study of Mus musculus with 8 samples.

Results

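The 10 genes described here encode the enzymes, and 1 helper protein, that turn arachidonic acid into prostaglandins, thromboxane and leukotrienes. They were chosen by symbol, and all 10 were among the 53278 symbols of a whole-forebrain RNA count table from 8 C57BL/6J males, 10 to 20 weeks old. For 9 days 4 of them, the depleted mice, were given PLX3397, an inhibitor of the microglial growth factor receptor CSF1R, in their food, while the diet of the 4 control mice held none. The series concerns how microglia and the ectonucleotidase CD39 act on brain blood flow, and the comparison asks what the forebrain loses with its microglia. Each library is a separate mouse, and values with ± are means and SDs over the 4 mice of a group, while SE is the standard error of a fitted fold change.

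Cells make these lipids on demand. Phospholipases release arachidonic acid from membranes, the cyclooxygenases Ptgs1 and Ptgs2 turn it into prostaglandin H2, and terminal synthases make prostaglandin E2, prostaglandin D2 or thromboxane A2 from that. Along the other branch the lipoxygenase Alox5, with its membrane partner Alox5ap, makes leukotriene A4, to which Ltc4s adds glutathione to give leukotriene C4. In brain these products act on vessel tone, fever, sleep and inflammation, and neurons, vessels, meninges and microglia each carry some of the enzymes.

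The drug's target stood at 1.14, 0.386, 1.66 and 1.69 CPM (counts scaled to a common library total, with TMM factors between libraries) in depleted mice 1 to 4, against 51.6, 65.0, 58.8 and 59.0 CPM in control mice 1 to 4. Libraries held between 48455538 and 68406688 counts, so before the TMM factors 1 CPM corresponded to between 48.5 and 68.4 counts. Libraries also differed in ways the labels do not record. The hypothalamic gene Hcrt had 1249 and 2081 counts in depleted mice 2 and 3 and 1578 and 1628 counts in control mice 2 and 3, but 4 to 7 counts in depleted mice 1 and 4 and 7 to 12 counts in control mice 1 and 4. Below, mice with at least 100 Hcrt counts are called mice with Hcrt reads, and the others mice without. Mice without Hcrt reads still differed in the summed level of 6 hypothalamic genes. It was 4.92 and 57.6 CPM in depleted mice 1 and 4, and 10.4 and 4.90 CPM in control mice 1 and 4. In mice with Hcrt reads it was 140 and 180 CPM (depleted 2 and 3) and 170 and 174 CPM (control 2 and 3). The summed level of 9 striatal genes ranged from 839 to 3292 CPM in depleted mice and from 342 to 1685 CPM in control mice. All 9 striatal genes had positive fold changes in depleted mice (median log2 fold change 1.45), 8 of them at an unadjusted p under 0.05 in edgeR, and 0 passed in edgeR, DESeq2 or limma-voom. Their part in the results was tested only as a covariate.

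Of the 10 enzyme genes, 5 fell in the depleted forebrain and none rose (edgeR's quasi-likelihood test, adjusted p under 0.05 over the 20140 genes tested). Those that fell were Tbxas1, Hpgds, Ltc4s, Alox5ap and Ptgs1, the genes for thromboxane synthase, the glutathione-dependent prostaglandin D synthase, leukotriene C4 synthase, the Alox5 partner protein and a cyclooxygenase. Over all genes tested 1.11% were called lower and 0.0546% higher. The median log2 fold change of the 10 genes was -0.90, beside -0.00038 over all genes tested. In 6 of the 10, the 5 named and Alox5, the highest depleted mouse was under the lowest control mouse, which was so for 3.5% of the genes tested. DESeq2 and limma-voom called the same number, 5 of 10, where they called 1.72% and 1.12% of all genes lower. Without depleted mouse 2, 5 of the 10 were also called lower, where 2.13% of all genes were lower and 1.18% higher (441 and 243 genes, against 223 and 11 with all mice). The count of 5 was 3 without depleted mouse 3, with Ptgs1 and Ltc4s lost (0.916% of all genes lower). In the 4 mice with Hcrt reads it was 1 (0.325% of all genes), and in the 4 mice without them 2 (0.899%). Each of these fits compared 2 depleted with 2 control mice, so a call lost there cannot be told apart from the effect of fewer mice. All 10 passed the filter on low counts, Tbxas1 and Alox5 with 3 of 4 depleted mice and all 4 control mice over its minimum. Ptgs1, Tbxas1, Alox5ap and Ltc4s share 148, 144, 189 and 268 of their 3884, 9094, 1420 and 1014 exon bases with an opposite-strand gene. Without a known strand setting, reads in the shared bases cannot be assigned to either gene of a pair. The other 6 share none. In bulk RNA, fewer cells of a type and less RNA per cell cannot be told apart.

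**Figure D1:**
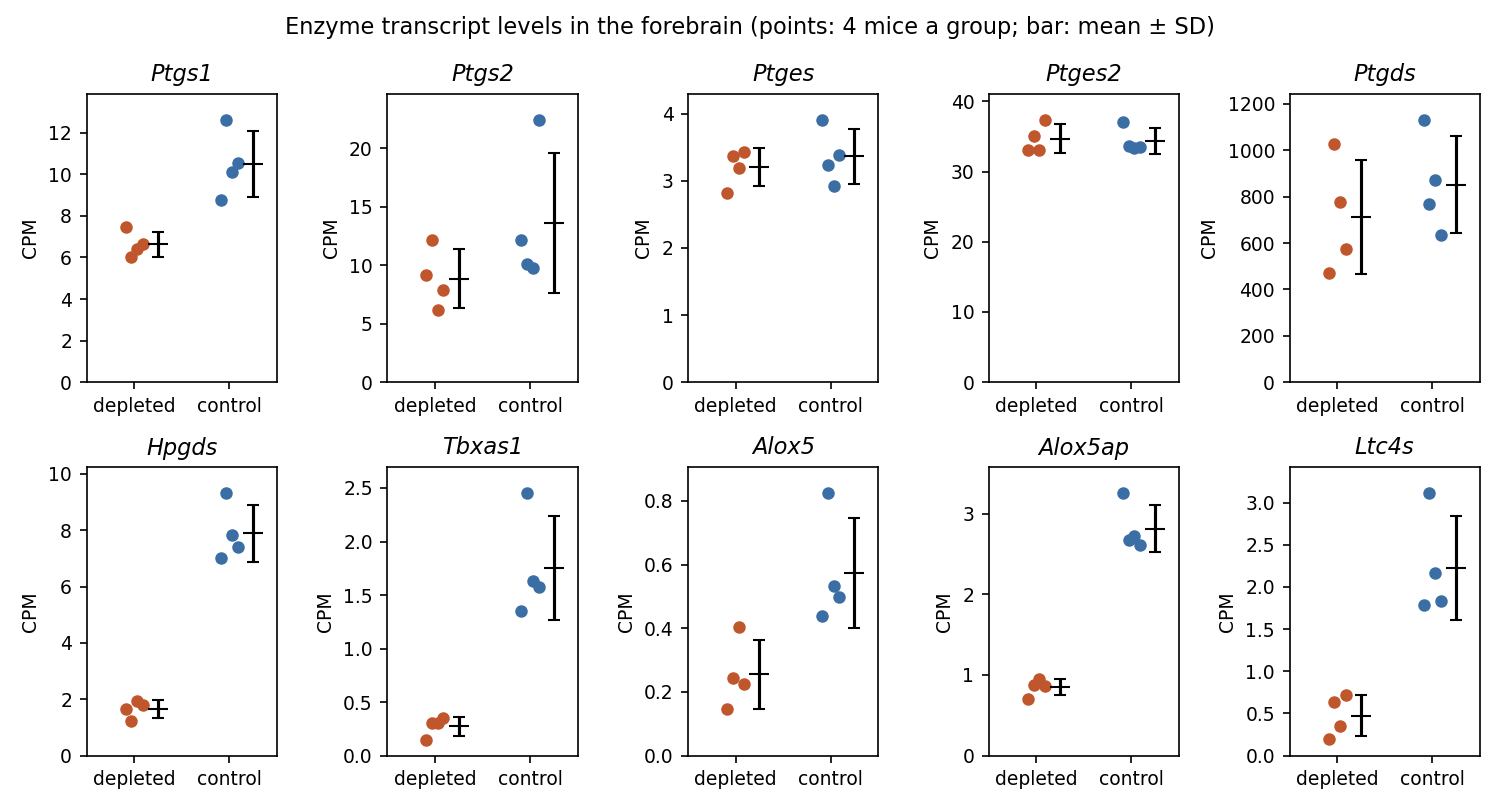
Level of each of the 10 enzyme genes in CPM (linear axes from 0), with 1 point per mouse and the mean ± SD beside the 4 points of each group. In Ptgs1, Hpgds, Tbxas1, Alox5, Alox5ap and Ltc4s every depleted mouse lies below every control mouse, while the groups overlap in Ptgs2, Ptges, Ptges2 and Ptgds.

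Of the cyclooxygenase genes, Ptgs1 fell and Ptgs2 did not pass the test; the difference between them was not tested. Ptgs1 (chromosome 2, 36230426 to 36252272, mm10), the enzyme most cells carry without stimulus, had 7.45, 6.04, 6.39 and 6.64 CPM in depleted mice 1 to 4, against 8.77, 12.6, 10.1 and 10.5 CPM in control mice 1 to 4. The highest depleted mouse lay under the lowest control mouse. Ptgs1 thus averaged 6.63 ± 0.601 CPM in depleted mice and 10.5 ± 1.60 CPM in control mice, 36.8% lower, a log2 fold change of -0.66 with an SE of 0.12 and an adjusted p of 0.0329 in edgeR. The call was narrow. It was lost without control mouse 2 (adjusted p = 0.0888), 3 (0.0944) or 4 (0.0766) and without depleted mouse 3 (0.130) or 4 (0.107), with log2 fold changes from -0.74 to -0.56 over the 8 fits that left out 1 mouse. It was also lost in the 4 mice with Hcrt reads (-0.86, adjusted p = 0.175), in the 4 without (-0.44, 0.493) and with Hcrt reads as a block (-0.66, 0.0543).

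Ptgs2 (chromosome 1, 150100031 to 150108227), the inducible cyclooxygenase, which excitatory neurons of the forebrain also express at rest, had 1 high control mouse. Its levels were 9.14, 12.1, 6.18 and 7.84 CPM in depleted mice 1 to 4, against 12.1, 10.1, 9.80 and 22.4 CPM in control mice 1 to 4. The groups overlapped, and 3 depleted mice lay below the lowest control mouse. The log2 fold change of -0.63 (95% interval -1.28 to 0.02) did not pass (adjusted p = 0.470 in edgeR; exact permutation test, two-sided over 70 splits, p = 0.143). Without control mouse 4 it was -0.28 (adjusted p = 0.576). It was -0.12 in the 4 mice with Hcrt reads, -1.01 in the 4 without and -0.18 with the level of striatal genes as a covariate. Neuronal activity genes did not pass in any of 10 cases in edgeR, DESeq2 or limma-voom, and none had an unadjusted p under 0.05 in edgeR; their summed level was 441 to 809 CPM in depleted mice and 442 to 1051 CPM in control mice, with control mouse 4 again the highest.

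Neither prostaglandin E synthase gene passed the test. Ptges (chromosome 2, 30889471 to 30929863), the membrane enzyme that works with Ptgs2 in inflammation and fever, averaged 3.20 ± 0.281 CPM in depleted mice and 3.36 ± 0.412 CPM in control mice. Its log2 fold change was -0.07 (95% interval -0.36 to 0.22, adjusted p = 0.894 in edgeR). Ptges2 (chromosome 2, 32395896 to 32405772), a constitutive enzyme, had 33.1, 35.1, 33.1 and 37.4 CPM in depleted mice 1 to 4, against 37.0, 33.6, 33.3 and 33.4 CPM in control mice 1 to 4. The mice of both groups were mixed, and the log2 fold change of 0.01 had the narrowest interval of the 10 genes, -0.13 to 0.16 (adjusted p = 0.964).

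Of the prostaglandin D synthase genes, Hpgds fell and Ptgds did not pass the test. Hpgds (chromosome 6, 65117293 to 65144908), the glutathione-dependent enzyme of immune cells, had 1.65, 1.22, 1.95 and 1.79 CPM in depleted mice 1 to 4, against 6.997, 9.31, 7.81 and 7.42 CPM in control mice 1 to 4. The groups lay far apart, and Hpgds fell by 2.25 on the log2 scale (SE 0.16, edgeR adjusted p = 5.15e-05), a call that held in all 19 alternatives. Ptgds (chromosome 2, 25466709 to 25470046), the lipocalin-type enzyme that the meninges, choroid plexus and oligodendrocytes express and release into cerebrospinal fluid, had 472, 1028, 776 and 575 CPM in depleted mice 1 to 4, against 1132, 769, 872 and 636 CPM in control mice 1 to 4. Depleted mouse 2 stood above 3 of the control mice. The log2 fold change of -0.26 (95% interval -0.81 to 0.29, adjusted p = 0.770) did not pass, and it was 0.14 in the 4 mice with Hcrt reads and -0.75 in the 4 without. Per kilobase of annotated exon, Ptgds stood at 432 ± 149 CPM in depleted mice and 517 ± 127 CPM in control mice, while Hpgds stood at 0.257 ± 0.0486 CPM in depleted mice and 1.23 ± 0.157 CPM in control mice.

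Genes of the tissues known for Ptgds were measured beside it. The summed level of 8 meningeal fibroblast genes, among them the matrix genes Dcn and Col1a1, was 56.9, 135.9, 75.1 and 61.9 CPM in depleted mice 1 to 4, against 139.2, 101.5, 109.4 and 94.0 CPM in control mice 1 to 4. Depleted mouse 2 and control mouse 1, the highest of their groups in Ptgds, were also the highest of their groups here. Across the 8 mice the log2 levels of Ptgds and of this sum had a Pearson r of 0.923 (exact permutation p = 0.00193, adjusted p = 0.00774 over 4 relations) and a Spearman rho of 0.929 (exact permutation p = 0.00223, adjusted p = 0.00893). Without the 2 mice farthest from the median of the sum, depleted mice 1 and 4, r was 0.801. The permutations of all 4 relations moved values freely between the groups. Every depleted mouse except mouse 2 lay below every control mouse in the sum, so the difference between groups enters r, rho and p. In each group the mice had the same order in Ptgds as in the sum, and relations within groups were not tested. The relations were chosen after the values were seen, and the 4 mice with and the 4 without Hcrt reads are too few for values of their own. None of the 8 meningeal genes passed in edgeR, DESeq2 or limma-voom, and 1 had an unadjusted p under 0.05 in edgeR.

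The other relations did not pass. For Ptgds and 10 oligodendrocyte genes r was 0.321 (exact permutation p = 0.454, adjusted p = 0.454) and rho 0.381 (exact permutation p = 0.360, adjusted p = 0.720), and r was 0.339 without the 2 farthest mice. The oligodendrocyte sum was 6871 to 10222 CPM in depleted mice and 4384 to 8485 CPM in control mice; none of the genes passed in edgeR or limma-voom, 8 had an unadjusted p under 0.05 in edgeR, and DESeq2 called 4 higher. For Ptgds and 8 choroid plexus genes r was 0.404 (exact permutation p = 0.350, adjusted p = 0.454) and rho -0.0714 (exact permutation p = 0.882, adjusted p = 0.882), with an r of -0.497 without the 2 farthest mice. For Ptgs2 and 10 neuronal activity genes r was 0.339 (exact permutation p = 0.407, adjusted p = 0.454) and rho -0.190 (exact permutation p = 0.665, adjusted p = 0.882), with an r of -0.762 without the 2 farthest mice. The part of meninges, myelin or choroid plexus in the Ptgds level was not tested.

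**Figure D2:**
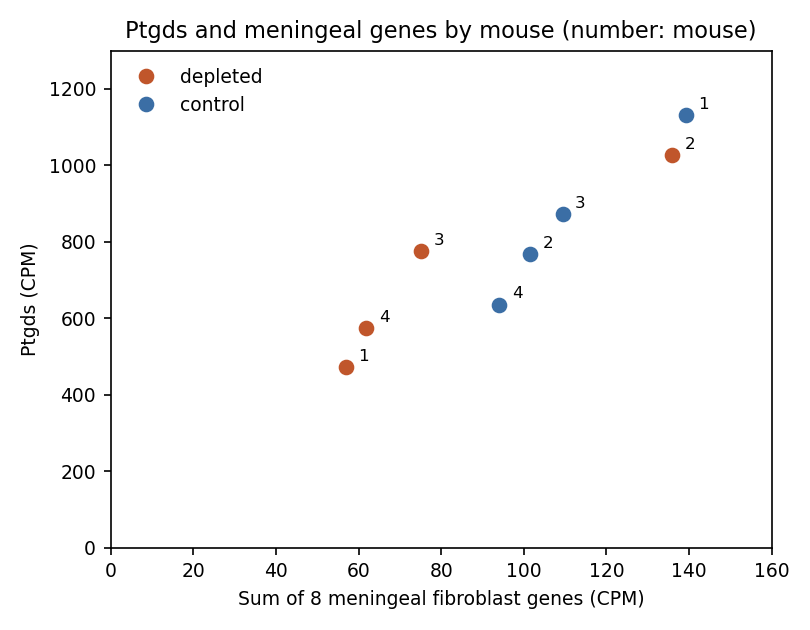
Ptgds level (CPM) against the summed level of 8 meningeal fibroblast genes (CPM), 1 point per mouse, for 4 depleted and 4 control mice. Ptgds is higher in mice with a higher sum in both groups. Between the log2 levels of all 8 mice, with the difference between groups included, the Pearson r is 0.923.

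**Figure D3:**
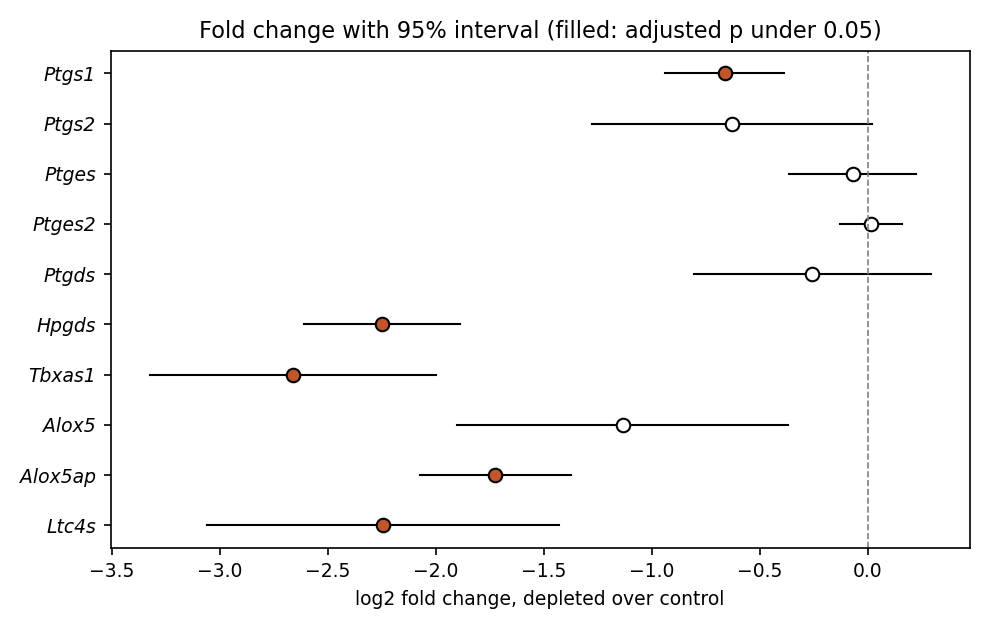
Log2 fold change of each enzyme gene, depleted over control, with its 95% interval from the edgeR fit (not adjusted for the number of genes) and filled points for an adjusted p under 0.05. Tbxas1, Hpgds, Ltc4s and Alox5ap lie between -2.66 and -1.72, Ptgs1 at -0.66, and the intervals of Ptgs2, Ptges, Ptges2 and Ptgds include 0.

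Tbxas1 (chromosome 6, 38875404 to 39084585), the synthase of the vasoconstrictor and platelet activator thromboxane A2, fell furthest. It had 0.145, 0.305, 0.303 and 0.350 CPM in depleted mice 1 to 4, against 1.35, 2.45, 1.64 and 1.57 CPM in control mice 1 to 4. These levels rested on 61 counts over the 4 depleted mice and 367 over the 4 control mice, and the groups did not overlap. Tbxas1 fell by 2.66 on the log2 scale (SE 0.30, edgeR adjusted p = 0.000999), and 17 of 19 alternatives gave the same call. In the 4 mice with and the 4 without Hcrt reads it stood at -2.73 (adjusted p = 0.0576) and -2.56 (0.0619).

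The 3 leukotriene genes were all weakly expressed and lower in every depleted than in every control mouse, and both Alox5ap and Ltc4s fell. Alox5ap (chromosome 5, 149264767 to 149288153), which presents arachidonic acid to Alox5, had 0.707, 0.875, 0.952 and 0.864 CPM in depleted mice 1 to 4, against 3.25, 2.68, 2.72 and 2.61 CPM in control mice 1 to 4. Its depleted mice were tightly grouped, and it fell by 1.72 on the log2 scale (SE 0.16, edgeR adjusted p = 2.32e-04). Among the 4 mice that had Hcrt reads it stood at -1.55 (adjusted p = 0.0871). Ltc4s (chromosome 11, 50236461 to 50238616), the synthase of leukotriene C4, had 0.200, 0.630, 0.346 and 0.720 CPM in depleted mice 1 to 4, against 1.79, 3.11, 2.17 and 1.83 CPM in control mice 1 to 4. Among depleted mice it varied more than Alox5ap did, and it fell by 2.24 on the log2 scale (SE 0.36, edgeR adjusted p = 0.0138). The call was lost without depleted mouse 3 (-2.11, adjusted p = 0.0606), among the 4 mice that had Hcrt reads (-2.45, 0.114), in the 4 without (-1.98, 0.212) and with the level of striatal genes as a covariate (-2.34, 0.0608).

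Alox5 itself (chromosome 6, 116410077 to 116461178), the lipoxygenase that starts leukotriene synthesis, was weakly expressed and did not pass. It had 0.145, 0.244, 0.404 and 0.226 CPM in depleted mice 1 to 4, from 59 counts in all, against 0.438, 0.824, 0.533 and 0.499 CPM in control mice 1 to 4, from 120 counts. The groups did not overlap (exact permutation test, two-sided over 70 splits, p = 0.0286, which is the lowest value possible here). The log2 fold change, -1.13, had an SE of 0.34 and a 95% interval of -1.90 to -0.37, at an unadjusted p of 0.00809 and an adjusted p of 0.269 in edgeR. In the alternatives its adjusted p ranged from 0.135 to 0.991.

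The share of the control level left was computed for each gene that fell. Tbxas1 kept 15.7% of its control mean (8.28% to 20.0% in single depleted mice), Hpgds 21.0% (15.5% to 24.7%), Ltc4s 21.3% (8.97% to 32.4%), Alox5ap 30.2% (25.1% to 33.8%) and Ptgs1 63.2% (57.5% to 71.0%). Among microglial genes Csf1r kept 2.08%, the fractalkine receptor gene Cx3cr1 1.46%, P2ry12 4.36% and Tmem119 4.91%. All 18 genes of the microglia list fell, with a median log2 fold change of -5.23 and values from -6.33 to -0.44. Over all genes tested, 1.11% were called lower in edgeR. Itgam, of the same list, passed the filter through the control mice alone, with 0 depleted mice over the minimum. Siglech and Gpr34 had 1 depleted mouse each over it. The difference between the shares kept by enzyme genes and by microglial genes was not tested.

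**Figure D4:**
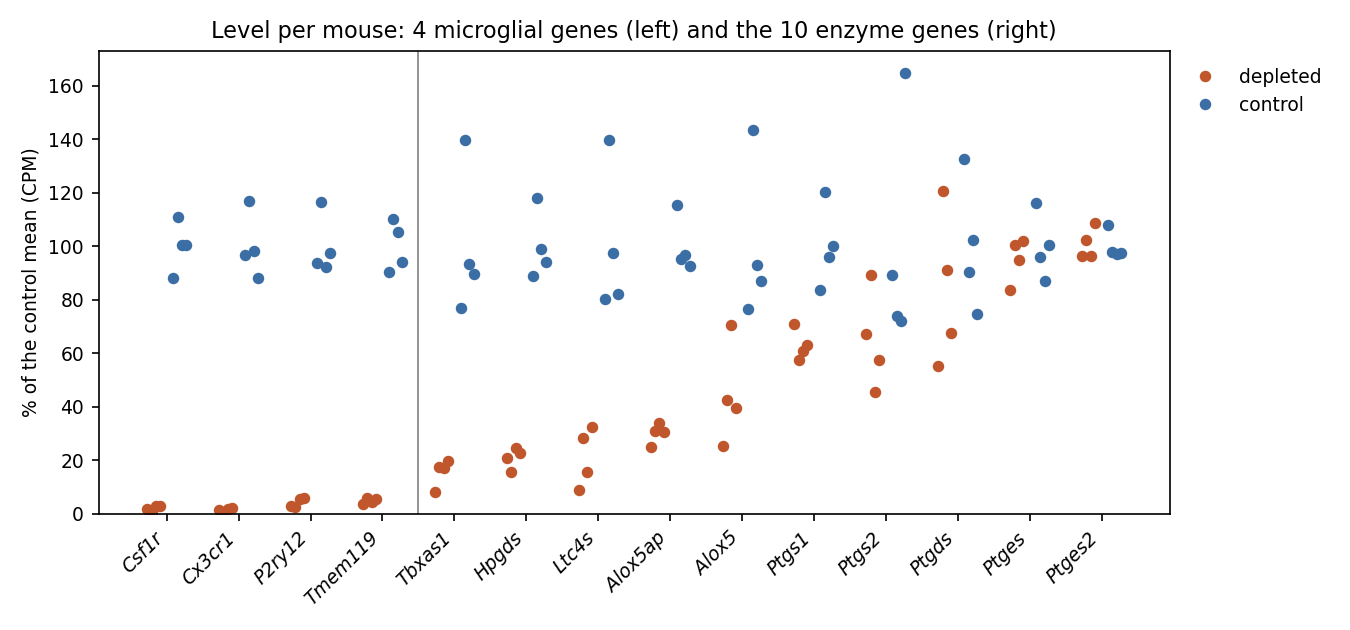
Level of each gene in each mouse as a percentage of its control mean (linear axis from 0), with depleted mice left of control mice for each gene. Depleted mice keep 2.08% of Csf1r on average, between 15.7% and 30.2% of Tbxas1, Hpgds, Ltc4s and Alox5ap, and 63.2% of Ptgs1.

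Per kilobase of annotated exon, the order of the enzymes differed between the groups. In depleted mice it ran Ptgds, Ptges2 (6.86 CPM per kilobase), Ptgs2 (1.93), Ptgs1 (1.71), Ptges (0.815), Alox5ap (0.598), Ltc4s (0.468), Hpgds (0.257), Alox5 (0.0621) and Tbxas1 (0.0303). In control mice it ran Ptgds, Ptges2 (6.79), Ptgs2 (2.97), Ptgs1 (2.70), Ltc4s (2.19), Alox5ap (1.98), Hpgds (1.23), Ptges (0.855), Tbxas1 (0.193) and Alox5 (0.140). Ptges, whose own difference did not pass, stood above Alox5ap, Ltc4s and Hpgds in depleted mice and below them in control mice. Neighbours whose mice overlapped were Ptgs2 with Ptgs1, Alox5ap with Ltc4s, Ltc4s with Hpgds and Alox5 with Tbxas1 in depleted mice. In control mice they were Ptgs2 with Ptgs1, Ptgs1 with Ltc4s, Ltc4s with Alox5ap and Tbxas1 with Alox5.

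Markers of other cells that carry these enzymes were measured beside them. Of 7 genes of border-associated macrophages, 5 were tested and 3 fell (Stab1, Mrc1 and F13a1), of which Mrc1 and F13a1 had 0 depleted mice over the minimum of the filter. Cd163 went the other way without passing, at 2.63, 0.814, 3.26 and 1.91 CPM in depleted mice 1 to 4, against 0.438, 1.52, 1.10 and 0.758 CPM in control mice 1 to 4 (log2 fold change 1.18, unadjusted p = 0.0255, adjusted p = 0.380 in edgeR). The summed level of the 7 genes was 2.99 to 5.80 CPM in depleted mice and 12.4 to 17.3 CPM in control mice. Mast cells are known for Hpgds, Alox5 and Ltc4s. None of their 6 marker genes had enough counts for the test, and the sum was 0.127 to 0.325 CPM in depleted mice and 0.144 to 1.10 CPM in control mice. The 8 neutrophil genes, with Ly6g at 0 in every library, were also all too low to test, at 0.226 to 0.721 CPM in depleted mice and 0.420 to 1.36 CPM in control mice. Of 5 platelet genes, which mark the cells known for Ptgs1 and Tbxas1, 3 were tested and 0 passed in edgeR, DESeq2 or limma-voom (1 had an unadjusted p under 0.05 in edgeR), with sums of 18.5 to 24.0 CPM in depleted mice and 16.5 to 21.0 CPM in control mice. Most of that sum was Gp1bb, at 13.4 to 19.6 CPM in depleted mice and 11.3 to 15.6 CPM in control mice, which shares 1902 of its 2087 exon bases with Sept5 on the same strand, so it cannot be read as platelet RNA. Gp9, too low to test, had 1 count over the depleted mice and 42 over the control mice. In Gp9, 0 depleted mice and 2 of the 4 control mice were over the minimum of the filter. Ppbp had 2 counts over the depleted mice and 4 over the control mice. The part of platelets, border-associated macrophages, mast cells and neutrophils in the falls was not tested.

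The start regions of 4 of the 5 genes that fell are shown, since Alox5ap had no entry. Whether these genes are regulated together was not tested. The sequences are from RefSeq (GRCm38.p6, the assembly of mm10), read 5′ to 3′ on the gene's strand. Each is the longest stretch, in the 250 bases before the start that RefSeq gives, without bases that GENCODE M21 places in an exon. The stretches of Hpgds, Ltc4s and Tbxas1 end 178, 84 and 6 bases before that start. For Tbxas1 that start lies inside the wider span that GENCODE gives the gene. Capitals mark GAGGAA or its reverse complement TTCCTC, a purine-rich run found in binding sites of ETS factors such as the macrophage regulator PU.1.
Tbxas1, chr6:38918876-38918979, plus strand: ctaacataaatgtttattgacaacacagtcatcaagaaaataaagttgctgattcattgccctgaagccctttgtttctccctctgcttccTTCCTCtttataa
Hpgds, chr6:65144909-65144980, minus strand: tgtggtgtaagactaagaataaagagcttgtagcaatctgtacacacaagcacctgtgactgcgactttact
Ltc4s, chr11:50238617-50238782, minus strand: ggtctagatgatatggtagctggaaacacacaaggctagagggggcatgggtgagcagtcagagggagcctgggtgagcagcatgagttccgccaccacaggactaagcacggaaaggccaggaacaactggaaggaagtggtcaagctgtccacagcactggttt
Ptgs1, chr2:36230176-36230425, plus strand: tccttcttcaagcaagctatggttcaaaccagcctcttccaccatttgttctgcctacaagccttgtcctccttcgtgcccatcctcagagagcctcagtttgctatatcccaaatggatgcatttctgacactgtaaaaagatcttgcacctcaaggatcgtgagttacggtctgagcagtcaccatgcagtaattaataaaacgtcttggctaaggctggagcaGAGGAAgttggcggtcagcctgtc
Over the full 250 bases, searched on both strands, 3 of these 4 genes held the run (Ptgs1, Tbxas1 and Hpgds, the last in bases not shown). It was also in 3 of the 5 other enzyme genes with an entry (Ptgs2, Ptges and Alox5), and in 23.3% of all 32851 windows of that length. With so few genes, these counts cannot show whether the run separates the genes that fell from the others, and the difference was not tested. A match is a run of letters, not a measured site.

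Among the other genes of the pathway, most did not pass, and Hpgd and Cysltr1 did. Of 13 arachidonate release genes, 11 were tested and 0 passed in edgeR, DESeq2 or limma-voom, with 1 at an unadjusted p under 0.05 in edgeR. The median log2 fold change was -0.02, with the hydrolase gene Faah at -0.42 (adjusted p = 0.390) and the phospholipase gene Pla2g4c at -0.69 (adjusted p = 0.496). The 5 other prostanoid synthase genes gave 0 calls in all 3 tools and none with an unadjusted p under 0.05 in edgeR. Their median was 0.01, with the reductase gene Akr1b3 at 0.08 and Fam213b at -0.13 (adjusted p = 0.653 and 0.714).

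Among 5 prostaglandin transport and breakdown genes, Hpgd fell. Hpgd, the dehydrogenase that inactivates prostaglandins, had 1.65, 1.69, 1.02 and 0.926 CPM in depleted mice 1 to 4, against 3.91, 4.00, 3.80 and 3.57 CPM in control mice 1 to 4. The groups lay apart, and Hpgd fell by 1.53 on the log2 scale (SE 0.21, edgeR adjusted p = 0.00380). It passed in 16 of 19 alternatives and in each of the 8 fits that left out 1 mouse. The call was lost with the level of striatal genes as a covariate (-1.39, adjusted p = 0.0517), among the 4 mice that had Hcrt reads (-1.53, 0.206) and in the 4 without (-1.52, 0.107). The prostaglandin transporter gene Slco2a1 stood at -0.73 (adjusted p = 0.304) and the reductase gene Ptgr2 at 0.33 (adjusted p = 0.302). The median of the 5 genes was -0.50.

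Receptor genes were weakly expressed. Of 9 prostanoid receptor genes, 7 were tested and 0 passed in the 3 tools, with none at an unadjusted p under 0.05 in edgeR. Their median was -0.21, with the prostaglandin E2 receptor gene Ptger4 at -0.31 (adjusted p = 0.658 in edgeR). Of 5 leukotriene receptor genes, Cysltr1, the receptor gene for cysteinyl leukotrienes, the products of the Ltc4s step, fell. It had 0.145, 0.0610, 0.0433 and 0.0411 CPM in depleted mice 1 to 4, from 16 counts in all, against 0.420, 0.391, 0.331 and 0.388 CPM in control mice 1 to 4, from 81 counts. It passed the filter through the control mice alone, with 0 depleted mice over the minimum, so its call says nothing of the list. Cysltr1 fell by 2.37 on the log2 scale (SE 0.39, edgeR adjusted p = 0.0148). The call was lost without control mouse 1 or 2 (adjusted p = 0.0549 and 0.0571) and without depleted mouse 3 or 4 (0.0717 and 0.0627). It was also lost with the level of striatal genes as a covariate (0.176), among the 4 mice that had Hcrt reads (0.235) and in the 4 without (0.300). The leukotriene B4 receptor gene Ltb4r1 stood at -0.71 (adjusted p = 0.572).

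The enzymes that act on leukotriene A4 and C4 after these steps, and the other lipoxygenases, gave no call in edgeR. Of 8 conversion and export genes, 5 were tested, with 0 calls in the 3 tools and none at an unadjusted p under 0.05 in edgeR. Their median was 0.02, with the leukotriene A4 hydrolase gene Lta4h at 0.07 (adjusted p = 0.751) and Ggt5 at -0.33 (adjusted p = 0.566). Of 6 other lipoxygenase genes, 5 were tested and all 5 had negative values, with a median of -0.65 and 2 at an unadjusted p under 0.05. Aloxe3, an epidermal-type lipoxygenase, stood at -0.82 (adjusted p = 0.131 in edgeR), with 6.47, 13.3, 8.30 and 7.28 CPM in depleted mice 1 to 4, against 16.3, 14.9, 15.1 and 16.2 CPM in control mice 1 to 4. It was the gene with the smallest p of its list, and the only one DESeq2 and limma-voom called lower. Alox12e stood at -0.85 (adjusted p = 0.251 in edgeR).

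**Figure D5:**
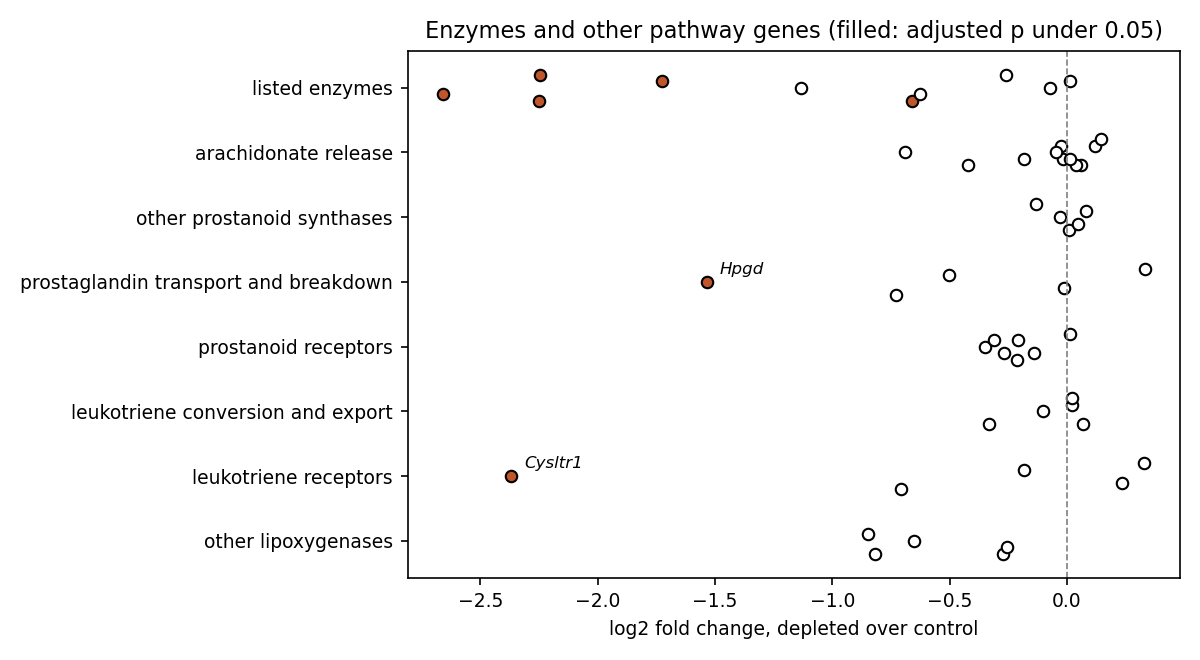
Log2 fold change, depleted over control, of the 10 enzyme genes and of the tested genes of each other pathway list, 1 point per gene, filled for an adjusted p under 0.05. Outside the 10 enzymes the filled points are Hpgd at -1.53 and Cysltr1 at -2.37, the second tested only because its control mice were over the filter's minimum.

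The genes most like each enzyme across mice were sought by the deviations of log2 CPM from the group means, so that the difference between groups did not enter. Over the 8 mice, among 13936 or 13937 other genes, the closest to Ptgs1 was Lair1, an inhibitory receptor gene of immune cells (Pearson r = 0.997), which itself fell (log2 fold change -1.02, adjusted p = 5.63e-04 in edgeR). Tmem119, the microglial marker, was closest to Ltc4s (r = 0.972), and Fermt3, the integrin adaptor gene of blood-lineage cells, was closest to Alox5 (r = 0.955). The closest to Hpgds, Tbxas1 and Alox5ap were Vrk1 (r = 0.988), Slc25a20 (r = 0.975) and Nmrk1 (r = 0.977). Vrk1, Slc25a20 and Nmrk1 did not pass in edgeR themselves (adjusted p = 0.463, 0.781 and 0.430). For Ptgs2, Ptges, Ptges2 and Ptgds the closest were Asph (r = 0.985), Htatsf1 (r = 0.997), Polr2g (r = 0.989) and Rps15a (r = 0.995). With 8 mice and so many genes compared, values of this size describe these libraries only, and all genes of a mouse share its library and dissection.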

How the data were processed

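The data are whole-forebrain RNA libraries of 8 mice. The authors deposited 1 table of raw counts by gene symbol, 1 column a mouse, and groups follow the titles. The submitters' processing notes name mm10 and the tools STAR, FastQC, MultiQC, DESeq and DESeq2; the counting step, strand setting and annotation were not stated there. Between replicate libraries, squared differences averaged over genes were at least 12.3 times those of sampling noise, so each library counts once.

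The 10 genes, the lists and the tests were chosen with earlier results of these data known. After filterByExpr, 20140 of 53278 symbols remained. TMM scaling and edgeR 4.0.16 (quasi-likelihood, R 4.3.3) compared the groups without covariates. Benjamini-Hochberg adjustment covered every gene tested, at a threshold of 0.05. The SE of a fold change was derived from its F value. Log2 CPM used a prior count of 2, and permutation tests between the groups covered all 70 splits, with a smallest p of 0.0286. The exact permutation p of the 4 relations came from all orderings of the 8 mice instead.

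The genes named are the 10 enzymes, each pathway gene past the threshold or, with none, the 2 of smallest p, at most 2 members of each marker list, and the closest genes across mice, sought above a mean log2 CPM of 1. Slco2a1, Ptgr2, Ltb4r1 and the further markers of microglia, platelets and border-associated macrophages were named after their values were seen. Ptgr3 was not matched, and Prxl2b was matched as Fam213b. Exon lengths, coordinates and overlaps are from GENCODE M21, which matched 49721 symbols. Other pathway genes, Ptger4 and Ptgr2 among them, also share exon bases with an opposite-strand gene, so their counts are uncertain. Of the genes the rule names, 1 is not reported here.

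Alternatives were other scalings, filters and a prior count of 0.5, DESeq2 1.42.0, limma-voom (limma 3.58.1), the replicate number, the striatal score or at least 100 Hcrt counts in the model, and each mouse left out. Fits within the mice with and without Hcrt reads, and the 4 relations, were added after seeing the data. In simulated counts the false calls of edgeR and limma-voom stayed near the threshold, while DESeq2 made more than its threshold allows. Its limit in that check was lifted after this was seen, and it serves as an alternative only.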

Additional observations from a re-analysis of the deposited data

Results flagged for a closer look

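Ptges2 stood at 37.0 CPM in control mouse 1, against 33.3 to 33.6 CPM in the other 3 control mice. The gap to the nearest mouse was 0.931 of the group's range, above Dixon's 95% critical value for 4 samples. Of 20 such groups examined, about 1 would exceed it by chance. Without that mouse the log2 fold change of Ptges2 was 0.05 (adjusted p = 0.912 in edgeR). In the depleted group the 4 mice stood between 33.1 and 37.4 CPM.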

How the results depend on the processing

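Hpgds passed in all 19 alternatives, with log2 fold changes from -2.57 to -2.06. Alox5ap passed in 18, Tbxas1 in 17, Ltc4s in 15 and Ptgs1 in 10. Ptgs2, Ptges, Ptges2, Ptgds and Alox5 passed in none; Alox5 had 18 values, since it was not among the genes left by the filter of 1 CPM in 4 samples, and Cysltr1 was not either. Within the 4 mice with Hcrt reads 1 of the 10, Hpgds, passed: Ptgs1 (-0.86, adjusted p = 0.175), Tbxas1 (-2.73, 0.0576), Alox5ap (-1.55, 0.0871) and Ltc4s (-2.45, 0.114) had the same direction, and Ptges (0.10) and Ptgds (0.14) turned. Genes called were 66 lower (0.325%) and 0 higher there. Within the 4 mice without Hcrt reads Hpgds and Alox5ap passed, 2 of the 10, while Ptgs1 (-0.44, adjusted p = 0.493), Tbxas1 (-2.56, 0.0619) and Ltc4s (-1.98, 0.212) did not; 128 genes were higher. With Hcrt reads as a block Ptgs1 stood at -0.66 (adjusted p = 0.0543). With the striatal score as a covariate Ltc4s stood at -2.34 (adjusted p = 0.0608), Ptges at 0.087 and Ptgds at 0.10, Ptgs2 moved to -0.18, Hpgd (adjusted p = 0.0517) and Cysltr1 (0.176) lost their calls, and 2 genes were higher; the cause of these shifts was not tested. The replicate numbers did not pair the mice (r of the deviations -0.22, -0.17, 0.37 and -0.01 for numbers 1 to 4). With the replicate block Ptgs1 stood at -0.65 (adjusted p = 0.222), 161 genes were lower and 4 higher; the block changed no other call among the 10, and Cysltr1 lost its call (adjusted p = 0.0746). Without single mice, genes lower ranged from 178 to 441 and genes higher from 2 to 243 (both highest without depleted mouse 2), against 223 and 11 with all mice, and the enzymes lower from 3 to 5, with 3 without depleted mouse 3, where Ptgs1 and Ltc4s lost their call. Ptges lay between -0.13 and 0.0096, Ptges2 between -0.027 and 0.052 and Ptgds between -0.48 and -0.09 in these fits, Ptgs1 between -0.74 and -0.56 and Ltc4s between -2.52 and -2.00. DESeq2 called 346 genes lower and 118 higher and 1 lower among the other lipoxygenases, against 0 in edgeR. The filter of 1 CPM in 4 samples left 6 genes higher, and no filter 25. The exact permutation tests between the groups gave the same direction and side of the threshold under a prior count of 0.5 and under both other scalings. Depth limits Alox5, Tbxas1 and Cysltr1, which rest on 59, 61 and 16 counts over the depleted mice.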
